A study of Mus musculus with 8 samples.

Results

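The genes of nucleotide synthesis and salvage make the purines and pyrimidines that a dividing T cell needs for RNA and DNA. The 32 member genes were chosen by name, as enzymes of ribose phosphate supply, purine and pyrimidine synthesis, deoxynucleotide supply, salvage and phosphorylation, together with the dNTP hydrolase Samhd1. All 32 were found among the 24421 genes counted in each library, and all 32 passed the filter on low counts. The samples were 4 libraries of LKB1-deficient and 4 libraries of control (LKB1 wild type) mouse CD8+ T cells, the cytotoxic arm of the T cell compartment. In both genotypes, naive cells were stimulated over 48 hours by anti-CD3 and anti-CD28 fixed to the plate, which stand in for antigen and costimulation. Stk11 encodes LKB1, the upstream kinase of AMPK and its relatives. The labels do not give the strain, the age of the animals, the Cre driver or the deleted part of Stk11, nor whether the replicates came from separate animals. The p-values therefore measure only the spread between these libraries.

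As background, resting T cells keep small nucleotide pools, and activation turns on both de novo synthesis and salvage before the cells enter S phase. De novo pyrimidine synthesis runs through the multifunctional enzyme CAD to UMP and, by CTP synthase, to CTP. De novo purine synthesis builds IMP on ribose phosphate, and IMP is then turned into AMP or GMP. Ribonucleotide reductase makes deoxynucleotides from these products, and SAMHD1 breaks dNTPs down. MYC, mTORC1 and E2F factors are known inducers of many of these genes in proliferating cells.

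The 250 bases before the RefSeq start (GRCm38.p6) are printed for the members that passed the test of genotype and have an entry, so that their regulatory sequence can be read beside their values. Pfas passed the test but is named only. Each runs 5′ to 3′ on the gene's strand. Capitals mark CCAAT boxes and the TGACG core of the cyclic AMP response element, the site of CREB and its CRTC coactivators, on either strand. For Ctps and Ctps2, the start listed first was taken of the 2 and 3 starts that the table gives.
Cad, chr5:31054530-31054779, plus strand: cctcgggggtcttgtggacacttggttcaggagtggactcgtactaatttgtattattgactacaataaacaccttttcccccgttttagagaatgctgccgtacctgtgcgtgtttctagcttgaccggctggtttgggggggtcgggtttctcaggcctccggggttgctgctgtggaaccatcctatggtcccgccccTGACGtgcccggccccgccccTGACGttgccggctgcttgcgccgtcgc
Ctps, chr4:120570277-120570526, minus strand: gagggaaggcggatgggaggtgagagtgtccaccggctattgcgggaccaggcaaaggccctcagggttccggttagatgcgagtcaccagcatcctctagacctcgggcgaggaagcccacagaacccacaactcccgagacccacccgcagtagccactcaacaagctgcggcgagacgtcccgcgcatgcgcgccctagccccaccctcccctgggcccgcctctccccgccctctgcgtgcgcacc
Ctps2, chrX:162901921-162902170, plus strand: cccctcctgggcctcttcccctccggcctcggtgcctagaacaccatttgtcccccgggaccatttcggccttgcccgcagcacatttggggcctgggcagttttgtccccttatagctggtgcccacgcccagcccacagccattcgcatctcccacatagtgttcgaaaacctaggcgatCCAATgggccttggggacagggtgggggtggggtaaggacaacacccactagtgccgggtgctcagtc
Samhd1, chr2:157135097-157135346, minus strand: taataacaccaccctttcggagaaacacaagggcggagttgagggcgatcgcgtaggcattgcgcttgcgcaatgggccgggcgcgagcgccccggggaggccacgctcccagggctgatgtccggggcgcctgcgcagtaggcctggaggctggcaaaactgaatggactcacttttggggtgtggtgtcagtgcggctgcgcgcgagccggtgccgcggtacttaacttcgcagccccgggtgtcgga
Cad held 2 TGACG cores and Ctps2 held 1 CCAAT box, and the windows of Ctps and Samhd1 held none of the motifs searched. Among the 30 members with an entry, the E-box CACGTG of MYC and MAX was found in 6 windows (20%), those of Atic, Dtymk, Impdh2, Nme1, Paics and Tyms, against 6.05% of all 27025 promoters of that length. None of these 6 genes passed the test of genotype. The TGACG core was found in 8 member windows (26.7%), against 17.9% of all promoters, and CCAAT in 9 (30.0%), against 34.5%. The full element TGACGTCA, which contains the TGACG core, was in no member window and in 1.62% of all promoters. These matches describe letters in a window and are not evidence of binding.

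Gene counts came to 3454388 to 6356125 per LKB1-deficient library and 7090252 to 12211930 per control library, so values are less precise in the LKB1-deficient group. On the first principal component of all tested genes (56.4% of the variance), LKB1-deficient replicates 2 and 4 lay farthest from the controls, and without both of them 2.37% of all genes passed the test, against 22.5% with all libraries. The controls also differed among themselves. On the second component (15.8%) control replicates 1 and 2 were at -28.6 and -20.0, and control replicates 3 and 4 at 7.69 and 15.5. LKB1-deficient replicates 1 to 4 were at 30.1, -13.8, 12.6 and -3.51 there. Of the 32 members, 7 and 10 were above the control mean in control replicates 1 and 2, and 20 and 27 in control replicates 3 and 4. Stk11 was at 76.5, 70.8, 107.5 and 64.4 CPM in the 4 LKB1-deficient replicates, against 101, 67.8, 82.0 and 77.0 CPM in control replicates 1 to 4 (adjusted p = 0.911). Counts of 3' ends do not check a deletion elsewhere in the gene. The defining markers Cd8a and Cd3d were present in every library, and 3 of 7 CD8 T cell markers were lower in LKB1-deficient cells: Cd3d, Cd3g and Cd8a. This is 42.9% of the list, against 10.1% of all genes called lower. The other 4 did not pass. Of these, Cd3e and Cd2 had positive log2 fold changes (0.32 and 0.24) and Cd8b1 and Lck negative ones (-0.485 and -0.32). Without both LKB1-deficient replicates 2 and 4, Cd3d still passed (adjusted p = 0.0372), while Cd3g and Cd8a did not (adjusted p = 0.184 and 0.110). The summed level of this list was 2077 to 3213 CPM in LKB1-deficient and 3767 to 4229 CPM in control libraries. Markers of B cells summed to 4.56 to 7.88 CPM in LKB1-deficient and 7.23 to 12.6 CPM in control libraries, with Pax5 at 0 in all 8. Cd79b was called lower (-0.94, adjusted p = 0.0164), but not without replicates 2 and 4 of the LKB1-deficient group, at about the same size (-0.98, adjusted p = 0.104). Those of myeloid cells summed to 3.77 to 11.4 and 2.25 to 5.98 CPM. CD4 T cell markers summed to 3.24 to 9.0 and 6.56 to 9.08 CPM. Mast cell and basophil markers summed to 4.22 to 20.7 CPM in LKB1-deficient and 2.96 to 4.54 CPM in control libraries. Mcpt8, of this list, was at 2.25 to 5.83 CPM in LKB1-deficient and 0.898 to 1.87 CPM in control libraries (adjusted p = 0.0511). Ms4a2 was at 0.944 to 2.43 and 0.260 to 0.530 CPM, too low to be tested. Neither overlapped between groups, at 8 to 20 and 4 to 9 counts in LKB1-deficient libraries, while Cpa3, Fcer1a and Gata2 overlapped. Gata2, of this list, was at 0.563, 9.62, 2.36 and 8.36 CPM in the LKB1-deficient libraries, against 0.808, 1.14, 1.29 and 1.69 CPM in controls. Its call (2.05, adjusted p = 0.0422) ended without LKB1-deficient replicate 2 (adjusted p = 0.132), without replicate 4 (adjusted p = 0.137) and without any single control (adjusted p from 0.0714 to 0.0942), and its log2 fold change was 0.43 without both replicates 2 and 4 (adjusted p = 0.686). The NK cell list summed to 83.7 to 154 and 66.3 to 116 CPM, nearly all from Eomes, a gene that CD8 T cells also express, with Klra8 at 0 in all 8 libraries. The part of these cell types in the results was not tested. In bulk libraries, fewer cells of a type and less RNA per cell cannot be told apart.

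The design asks how loss of LKB1 alters transcript levels after activation. Of the 32 members, 3 were higher in LKB1-deficient cells (Cad, Pfas and Ctps), 2 were lower (Ctps2 and Samhd1) and 27 did not pass (edgeR quasi-likelihood test, Benjamini-Hochberg adjusted p under 0.05 over all 10396 genes tested). These 5 are 15.6% of the members, against 22.5% of all genes tested (12.4% higher and 10.1% lower), so the share called is near the background and is not a result about the list. The median log2 fold change of the members was -0.02, against 0.00 over all genes, and the median absolute log2 fold change was 0.29, against 0.345 over all genes. The libraries of the groups did not overlap for 7 members, the 5 called genes with Gart and Rrm2, against 26.1% of all genes (12.0% higher and 14.1% lower). DESeq2 called 7 members, the same 5 with Gart and Rrm2, against 29.3% of all genes. The members summed to 6960 to 7474 CPM in LKB1-deficient and 6691 to 7760 CPM in control libraries, ranges that overlap.

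**Figure D1:**
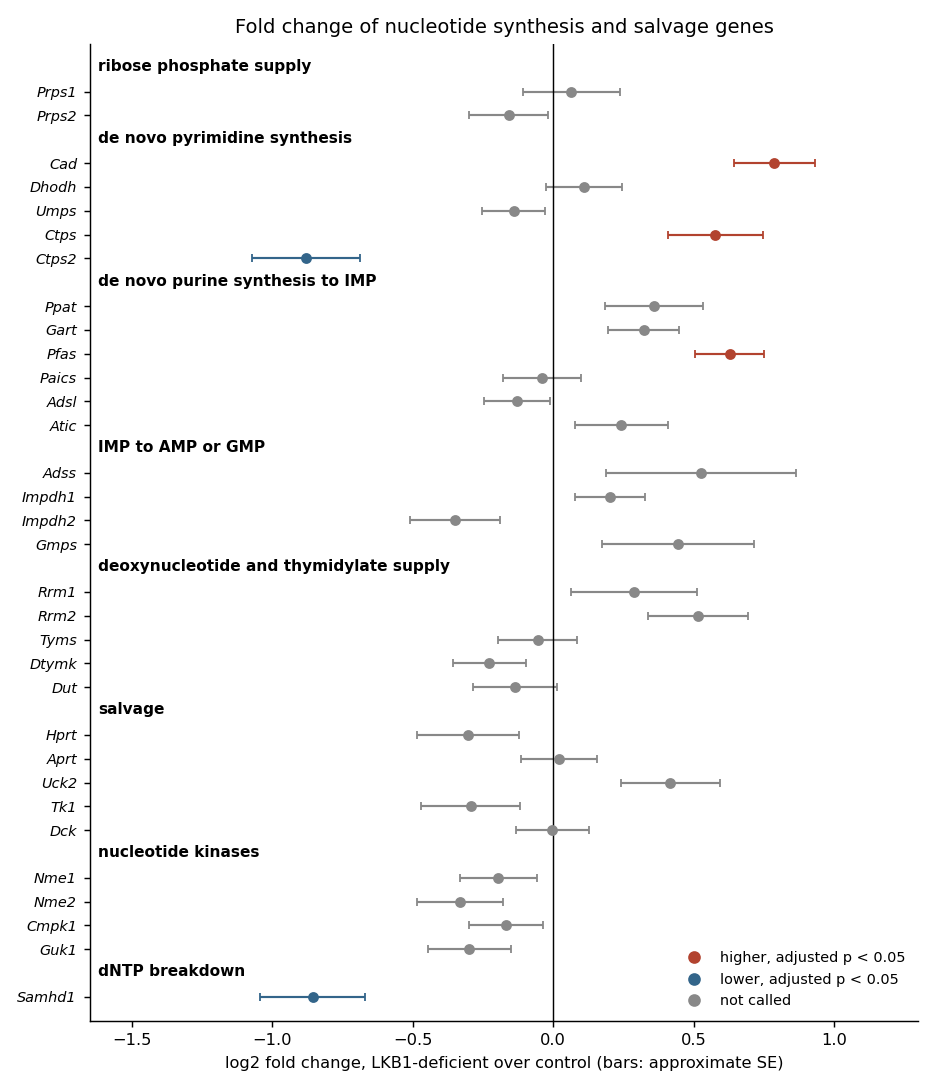
Log2 fold change of each of the 32 members, LKB1-deficient over control (x axis; bars are approximate standard errors), grouped by role down the page. Cad, Pfas and Ctps passed the test on the higher side and Ctps2 and Samhd1 on the lower side, and the other 27 did not pass.

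De novo pyrimidine synthesis held 3 of the 5 called members. Cad encodes the enzyme of the initial steps, carbamoyl phosphate synthetase, aspartate transcarbamylase and dihydroorotase in 1 protein. It was at 165, 130, 132 and 125 CPM (counts per gene relative to TMM-scaled library size) in LKB1-deficient replicates 1 to 4, against 77.1, 70, 76.6 and 95.9 CPM in control replicates 1 to 4. Every LKB1-deficient library was above every control library. Cad was 1.72-fold higher (log2 fold change 0.79 ± 0.14 SE, adjusted p = 0.00794), and it was the only member still called without both LKB1-deficient replicates 2 and 4 (0.90, adjusted p = 0.0444). The call ended when each library's trend on transcript length was removed (0.41, adjusted p = 0.177); the longest Cad transcript, 7137 bases, is among the longest of the members.

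CTP synthase, which turns UTP into CTP, is encoded by Ctps and Ctps2, and the genes moved in opposite directions. Ctps was at 119, 117, 90.5 and 162 CPM in the 4 LKB1-deficient replicates, against 78.6, 89.5, 79.8 and 79.2 CPM in controls. LKB1-deficient replicate 3 stood only just above the highest control, so the groups barely separate. Ctps was 1.49-fold higher (0.58 ± 0.17, adjusted p = 0.0370), a call that held without LKB1-deficient replicate 3 and ended when any of the other 7 libraries was dropped (adjusted p up to 0.0938), and with upper quartile (0.47, adjusted p = 0.0543) or total count scaling (0.40, adjusted p = 0.0872). It was 0.36 without both LKB1-deficient replicates 2 and 4 (adjusted p = 0.213). It also missed the threshold at about the same size in the EU libraries alone (0.57, adjusted p = 0.0943) and with a term for the identifier letters ET or EU (0.58, adjusted p = 0.0532). EU are the first letters of the sample identifiers of replicates 2 to 4 in both groups, and ET those of replicate 1. Ctps2 was at 28.1, 21.9, 32.9 and 20.2 CPM in the 4 LKB1-deficient replicates, against 60.6, 39.0, 43.4 and 48.1 CPM in controls. All 4 LKB1-deficient libraries were below all controls, and Ctps2 was 1.84-fold lower (-0.88 ± 0.19, adjusted p = 0.0138). It kept its call without each single library (adjusted p up to 0.0441) and lost it without both LKB1-deficient replicates 2 and 4 (-0.64, adjusted p = 0.126).

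The other genes of the pyrimidine route did not pass. Dhodh, the mitochondrial dihydroorotate dehydrogenase, averaged 40.2 ± 3.30 CPM in LKB1-deficient and 37.3 ± 5.03 CPM in control cells (SD, n = 4 each; adjusted p = 0.569). Umps, which makes UMP from orotate, averaged 163 ± 10.4 and 180 ± 4.16 CPM (adjusted p = 0.373). Whether Cad differs from these genes in its response was not tested.

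**Figure D2:**
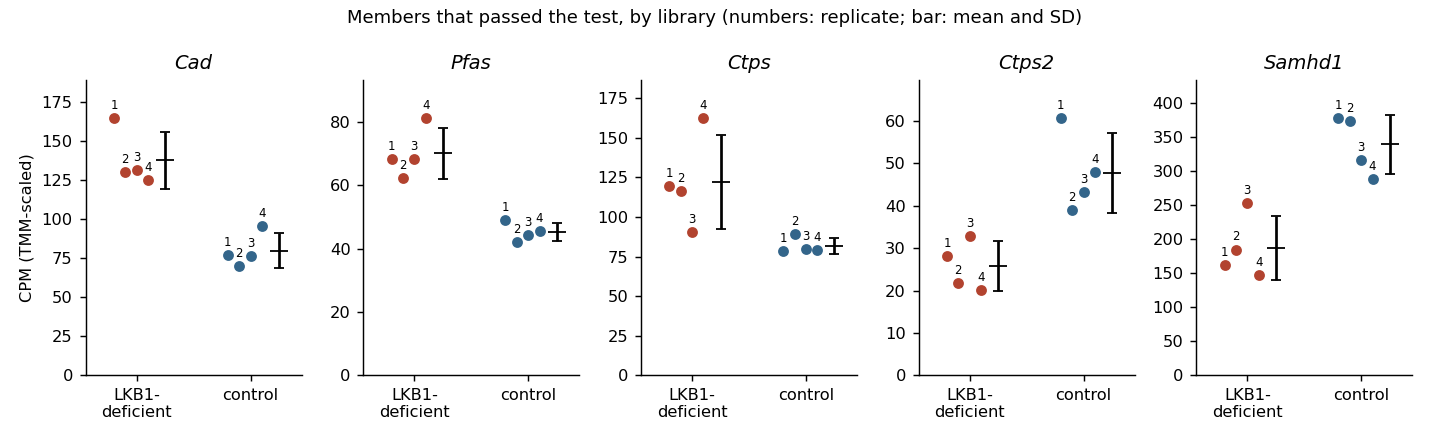
CPM (y axes, from 0) of the 5 members that passed the test, with LKB1-deficient libraries left and control libraries right in each panel; points are libraries numbered by replicate, and bars are the mean and SD of 4 libraries. The LKB1-deficient libraries lie above all controls for Cad, Pfas and Ctps and below all controls for Ctps2 and Samhd1, with a narrow gap for Ctps (90.5 CPM in LKB1-deficient replicate 3 against 89.5 CPM in control replicate 2).

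Of the 6 enzymes of de novo purine synthesis to IMP, 1 was higher, none was lower and 5 did not pass. Pfas, the FGAR amidotransferase of the pathway, was at 68.4, 62.4, 68.3 and 81.1 CPM in the 4 LKB1-deficient replicates, against 49.05, 42.1, 44.4 and 45.7 CPM in controls. All 4 LKB1-deficient libraries were above all 4 controls. Pfas was 1.55-fold higher (0.63 ± 0.12, adjusted p = 0.00990), kept its call without each single library (adjusted p up to 0.0346), and had an adjusted p of 0.0504 without both LKB1-deficient replicates 2 and 4. As for Cad, the call ended after removal of the length trend (0.31, adjusted p = 0.123), and its longest transcript has 6373 bases. At an unadjusted p under 0.05 the quasi-likelihood test gave 2 higher and 0 lower genes in this group. The share of all genes at an unadjusted p was not counted. Counts at an unadjusted p, here and below, are therefore not a result about a list. DESeq2 called 2 higher and 0 lower, and limma-voom 1 higher and 0 lower. Over all 10396 genes, DESeq2 called 1704 higher and 1343 lower, and limma-voom 1209 higher and 1015 lower.

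Gart, which carries 3 steps of the route in 1 protein, was at 250, 231, 263 and 236 CPM in the 4 LKB1-deficient replicates, against 182, 178, 203 and 221 CPM in controls. All LKB1-deficient libraries were higher, yet the difference did not pass (0.32 ± 0.13, adjusted p = 0.0867), while DESeq2 called it (adjusted p = 0.0166). Ppat, the amidotransferase that commits ribose phosphate to purine synthesis, was at 200, 260, 152 and 241 CPM in the 4 LKB1-deficient replicates, against 159, 189, 153 and 164 CPM in controls (adjusted p = 0.153). LKB1-deficient replicate 3 lay at the control level, and without it Ppat passed (adjusted p = 0.0426). Paics, whose start lies next to that of Ppat on chromosome 5 on the opposite strand so that the annotated genes overlap (Paics from 76951307, Ppat up to 76951578, GRCm38), averaged 383 ± 43.5 CPM in LKB1-deficient and 393 ± 33.9 CPM in control cells. Adsl, adenylosuccinate lyase, averaged 164.5 ± 13.1 and 180 ± 9.36 CPM, and Atic, the bifunctional enzyme that completes IMP, 269 ± 37.7 and 228 ± 40.3 CPM. The 3 differences had adjusted p-values of 0.859, 0.435 and 0.299. The transcript end of Atic shares stretches of 50 to 57 bases with unrelated genes, and that of Dtymk, below, stretches of 65 to 117 bases, so both levels carry some uncertainty.

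Neither of the genes of ribose phosphate supply passed. Prps1, a PRPP synthetase, was at 192, 150, 149 and 157 CPM in the 4 LKB1-deficient replicates, against 119, 133, 176 and 191 CPM in controls (adjusted p = 0.811). Prps2, its paralog, averaged 69.0 ± 11.4 CPM in LKB1-deficient and 77.1 ± 4.01 CPM in control cells (adjusted p = 0.426). Neither the quasi-likelihood test at an unadjusted p under 0.05 nor DESeq2 or limma-voom called either gene (0 of 2 each).

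None of the 4 genes that turn IMP into AMP or GMP passed (0 at an unadjusted p under 0.05, and 0 by DESeq2 and limma-voom). Adss, adenylosuccinate synthase, was at 164, 467, 142 and 205 CPM in the 4 LKB1-deficient replicates, against 141, 204, 157 and 176 CPM in controls. Its fold change (0.53 ± 0.34, adjusted p = 0.268) was 0.008 when LKB1-deficient replicate 2 was left out, and -0.15 without replicates 2 and 4 of that group. Gmps, GMP synthetase, was at 76.0, 105, 64.9 and 129 CPM in the 4 LKB1-deficient replicates, against 53.4, 106, 58.2 and 57.3 CPM in controls. The level of control replicate 2 lay between those of LKB1-deficient replicates 2 and 4, and the adjusted p was 0.241. Impdh1, an IMP dehydrogenase, averaged 57.5 ± 6.03 CPM in LKB1-deficient and 50 ± 4.29 CPM in control cells (adjusted p = 0.250). Impdh2, the paralog that proliferating cells are known to induce, averaged 12.1 ± 0.652 CPM in LKB1-deficient and 15.45 ± 2.58 CPM in control cells (adjusted p = 0.130). The last 300 bases of its transcript share 235 identical bases with the processed pseudogene Impdh2-ps. The count tables hold a separate line for alignments that were not unique. Whether reads shared by both were also counted to Impdh2 is not given, so its level is uncertain.

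In deoxynucleotide and thymidylate supply, 0 of 5 genes passed the quasi-likelihood test, 1 had an unadjusted p under 0.05, and DESeq2 called 1 and limma-voom 0. That gene was Rrm2, the regulated small subunit of ribonucleotide reductase. It was at 533, 373, 397 and 498 CPM in the 4 LKB1-deficient replicates, against 259, 280.0, 352 and 370 CPM in controls. All LKB1-deficient libraries were above all controls, and the adjusted p was 0.0587 (0.52 ± 0.18, 1.43-fold). It passed after removal of the length trend (0.65, adjusted p = 0.0220) and by DESeq2 (adjusted p = 0.0184). Rrm1, the large subunit, was at 399.5, 558, 451 and 834 CPM in the 4 LKB1-deficient replicates, against 480.3, 523, 418.5 and 416 CPM in controls (adjusted p = 0.364). LKB1-deficient replicate 4 was the highest of the 8 libraries, and the groups overlapped. Tyms (thymidylate synthase) averaged 105 ± 12.0 and 109 ± 14.3 CPM, Dtymk (thymidylate kinase) 300.5 ± 21.25 and 352 ± 33.7 CPM, and Dut (dUTPase, which keeps uracil out of DNA) 944 ± 104 and 1038 ± 101 CPM. Their adjusted p-values were 0.801, 0.221 and 0.523.

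**Figure D3:**
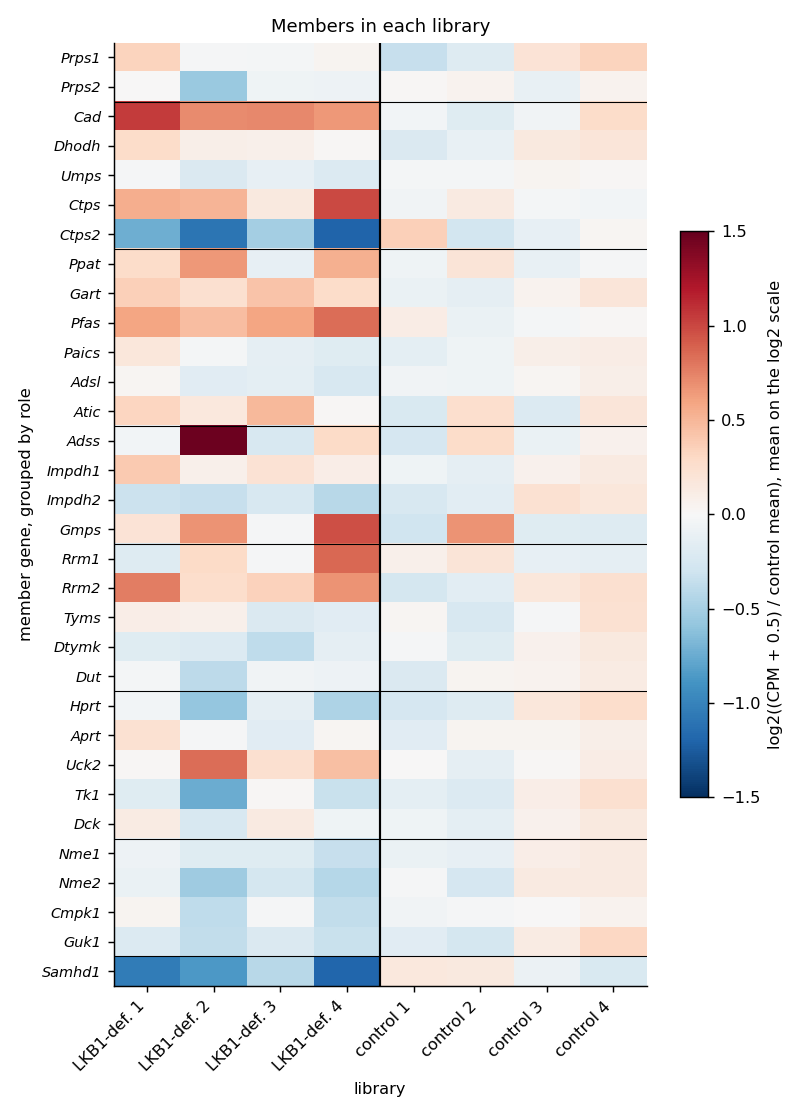
Each cell is the log2 of a library's CPM plus 0.5 over the mean of the 4 control libraries on the log2 scale; rows are the 32 members grouped by role, and columns are the LKB1-deficient libraries left and the control libraries right of the line. Cad, Pfas, Ctps, Ctps2 and Samhd1 lie outside the control range in all 4 LKB1-deficient libraries, as do Gart and Rrm2, which were not called. The gap is narrow for Ctps in LKB1-deficient replicate 3 and for Rrm2 in LKB1-deficient replicate 2. Adss is high in LKB1-deficient replicate 2 and Rrm1 in LKB1-deficient replicate 4.

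Of the 5 salvage genes, which recycle bases and nucleosides, none passed; 1 had an unadjusted p under 0.05, and DESeq2 and limma-voom called 0. That gene was Uck2, uridine-cytidine kinase, at 172, 305, 202 and 233 CPM in the 4 LKB1-deficient replicates, against 171, 155, 172 and 185 CPM in controls. LKB1-deficient replicate 1 sat at the control level, and without it Uck2 passed (adjusted p = 0.0464, against 0.108 with all libraries). Hprt, which salvages hypoxanthine and guanine, averaged 376 ± 67.1 CPM in LKB1-deficient and 464 ± 82.8 CPM in control cells. Aprt, which salvages adenine, averaged 309 ± 35.3 and 304.5 ± 23.6 CPM, and Dck, deoxycytidine kinase, 65.5 ± 7.85 and 65.8 ± 6.03 CPM. Tk1, the S-phase thymidine kinase, averaged 69.8 ± 14.9 and 85.8 ± 12.6 CPM. The adjusted p-values of these 4 were 0.234, 0.929, 0.986 and 0.235.

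The 4 nucleotide kinases all had negative log2 fold changes, from -0.33 to -0.17, and none passed (0 at an unadjusted p under 0.05, 0 by DESeq2 and 0 by limma-voom). Nme1 and Nme2, nucleoside diphosphate kinases, averaged 659 ± 50.3 and 329 ± 44.1 CPM in LKB1-deficient cells, against 755 ± 68.2 and 415 ± 51.7 CPM in control cells (adjusted p = 0.311 and 0.135). Guk1, guanylate kinase, averaged 86.8 ± 5.11 CPM in LKB1-deficient and 107 ± 19.7 CPM in control cells, and Cmpk1, UMP/CMP kinase, 68.4 ± 10.65 and 76.9 ± 2.525 CPM. The sign of Guk1 turned with the length trend removed (0.02) and that of Cmpk1 without both LKB1-deficient replicates 2 and 4 (0.02). Nme2 is uncertain, since its transcript end matches the annotated gene Gm20390 over 295 identical bases and 3 pseudogenes at over 95% identity.

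Samhd1 was the member on the breakdown side. Its product cleaves dNTPs to nucleosides, and it limits dNTP pools outside S phase. It was at 163, 185, 254 and 148 CPM in the 4 LKB1-deficient replicates, against 378, 374, 317 and 289 CPM in control replicates 1 to 4. LKB1-deficient replicate 3 was closest to the controls and still below them. Samhd1 was 1.81-fold lower (-0.86 ± 0.19, adjusted p = 0.0136), kept its call without each single library (adjusted p up to 0.0433) and after removal of the length trend (-0.90, adjusted p = 0.0124), and lost it without both LKB1-deficient replicates 2 and 4 (-0.70, adjusted p = 0.122) and in the EU libraries alone (-0.74, adjusted p = 0.0524). Samhd1 is also known as an interferon-inducible gene.

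Several steps are carried by enzyme pairs, and the ratio of the 2 genes within a library does not depend on how libraries are scaled. For 8 such pairs the log2 ratio of counts was compared between groups with an exact two-sided permutation test. With 4 libraries against 4 the smallest possible p is 0.0286, and at least 5 of 8 pairs would have to reach it to pass an adjusted p of 0.05. In 4 pairs the libraries of the groups did not overlap and p was 0.0286 (adjusted p = 0.0571), so none passed after adjustment. The share without overlap was not counted for ratios of other genes (26.1% of single genes did not overlap). The pairs were also chosen with earlier results known, so this count is not a result about these pairs. The Ctps to Ctps2 ratio was 4.18, 5.22, 2.73 and 7.84 in LKB1-deficient replicates 1 to 4, against 1.3, 2.29, 1.84 and 1.65 in controls, a 2.69-fold difference, the widest of these 8 pairs. All 4 LKB1-deficient libraries had more Ctps relative to Ctps2 than any control (4 of 4).

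The other pairs without overlap set a salvage or synthesis gene against its partner. Dck to Dguok, the cytosolic deoxycytidine kinase against the mitochondrial deoxyguanosine kinase, was 2.19, 2.24, 2.34 and 2.55 in LKB1-deficient replicates 1 to 4, against 1.28, 1.41, 1.41 and 1.63 in controls. This is a 1.63-fold difference that lies with Dguok, which passed the test on the lower side, while Dck averaged nearly the same in both groups. Uck2 to Uck1 was 51.1, 61.6, 64.2 and 61.8 in LKB1-deficient replicates 1 to 4, against 41.5, 37.4, 35.0 and 31.6 in controls (1.64-fold), and Impdh1 to Impdh2 was 5.24, 4.26, 4.40 and 4.55, against 3.68, 3.29, 2.87 and 3.15 (1.42-fold). Neither gene of these 2 pairs passed on its own. Impdh2 and Nme2 have transcript ends shared with other annotated sequences, so their ratios with Impdh1 and with Nme1 are uncertain. The ratios of Prps1 to Prps2, Nme1 to Nme2, Rrm2 to Rrm2b and Tk1 to Tk2 overlapped between groups, with log2 differences of 0.255, 0.14, 0.20 and 0.25 and p-values from 0.171 to 0.429 in the exact permutation test.

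**Figure D4:**
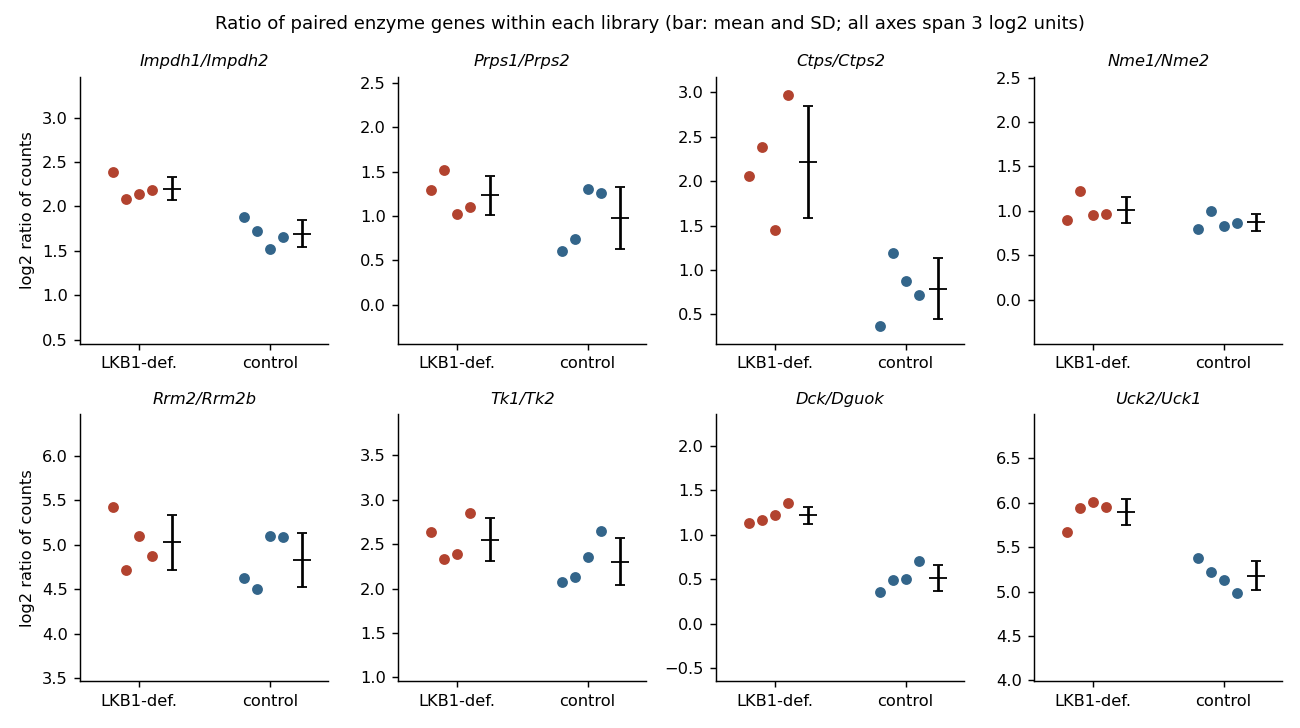
Log2 ratio of counts of paired enzyme genes within each library (y axes, each spanning the same number of log2 units), with LKB1-deficient libraries left and control libraries right; points are libraries and bars the mean and SD of 4. The groups are apart for Ctps/Ctps2, Impdh1/Impdh2, Dck/Dguok and Uck2/Uck1 and overlap for the other 4 pairs.

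Within the LKB1-deficient group, replicates 2 and 4 were both above replicates 1 and 3 for 5 members, Ppat, Adss, Gmps, Rrm1 and Uck2. They were both below replicates 1 and 3 for 16 members, among them Ctps2, Cad, Hprt and Nme2, and 11 members had neither order. The same counts were not made over all genes, so they are not a result about these members.

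Members with long transcripts tended to have higher fold changes. The 4 members with an annotated transcript over 5000 bases, Rrm1, Pfas, Cad and Gmps, all had positive log2 fold changes (median 0.54), and 4 of the 5 under 1500 bases, Nme2, Dtymk, Guk1 and Hprt, had negative ones (median -0.30 with Aprt). Over the 32 members Spearman's rho between length and log2 fold change was 0.44, as a description across genes that share libraries. It was 0.385 over the 10354 tested genes with a length, where the median log2 fold change was 0.355 above 5000 bases and -0.31 below 1500, so the relation is not particular to these genes. With the trend removed, Ctps, Ctps2, Rrm2 and Samhd1 passed and Cad and Pfas did not, and 17.5% of all genes passed.

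**Figure D5:**
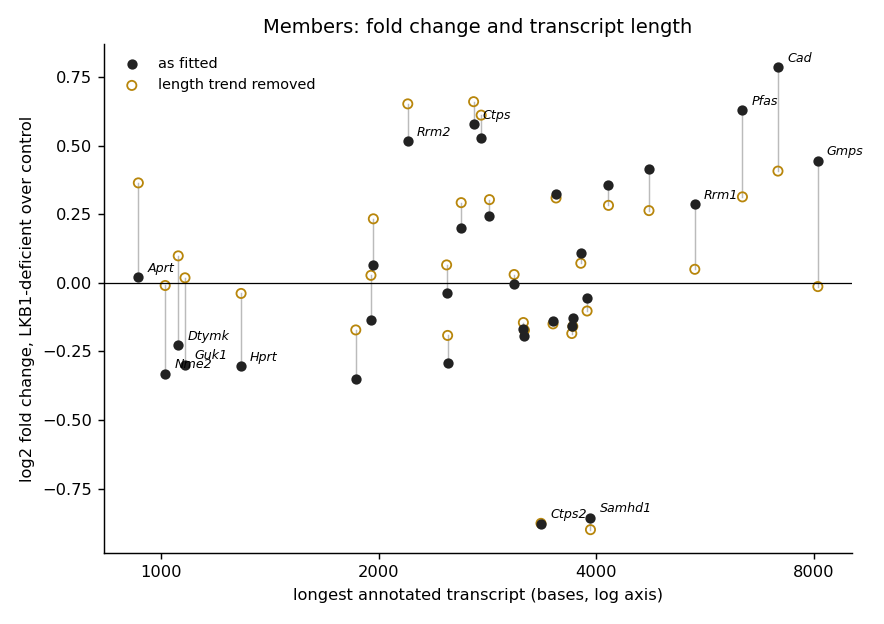
Log2 fold change, LKB1-deficient over control (y axis), of the 32 members against their longest annotated transcript in bases (x axis, log scale); filled points are as fitted and open circles are with each library's trend on transcript length removed, joined by lines. The long-transcript genes Cad, Pfas, Gmps and Rrm1 move toward 0 and short ones such as Aprt, Dtymk and Guk1 move up, while Ctps2 and Samhd1 stay near their values.

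Beyond the members, 53 further genes of the same pathways were looked at and 41 were tested. Of these, 9 were lower, none was higher and 32 did not pass, so that 22% were called lower, against 10.1% of all genes called lower and 22.5% called in either direction. With the trend on transcript length removed, the calls were 3 higher and 6 lower. The absence of higher calls also depended on the filter and the libraries. With no filter on low counts, 2 were higher and 9 lower. Without any single control library, 2 were higher and 5 to 7 lower, and without LKB1-deficient replicate 3, 4 were higher and 13 lower. Over all genes, 560 to 1126 were higher and 451 to 872 lower without any single control library. Without LKB1-deficient replicate 3, 1472 of all 10582 genes tested were higher and 1353 lower. At an unadjusted p under 0.05 the quasi-likelihood test had 3 higher and 16 lower, DESeq2 called 1 higher and 12 lower, and limma-voom 0 and 7. Over all 10396 genes, DESeq2 called 1704 higher and 1343 lower, and limma-voom 1209 and 1015, while those at an unadjusted p were not counted. The median log2 fold change was -0.26. The genes with the smallest p were Dguok, Xdh, Slc28a2, Nt5c3, Nme7 and Nme3.

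Among these lower genes, Dguok acts in salvage, Xdh in breakdown and Slc28a2 in transport. Dguok, which phosphorylates purine deoxynucleosides in mitochondria, was at 32.4, 24.5, 30.7 and 24.3 CPM in the 4 LKB1-deficient replicates, against 49.0, 42.1, 48.6 and 44.6 CPM in controls (1.64-fold lower, adjusted p = 0.00917). Xdh, xanthine dehydrogenase of purine breakdown, was at 5.63, 3.79, 13.1 and 3.77 CPM, against 22.8, 25.9, 24.3 and 20.1 CPM in controls (3.34-fold lower, adjusted p = 0.00942). Without LKB1-deficient replicate 3, the highest of its group, Xdh was 5.33-fold lower. In both genes all 4 LKB1-deficient libraries were below all controls. Slc28a2, a concentrative nucleoside transporter, averaged 5.10 ± 1.615 CPM in LKB1-deficient and 12.6 ± 3.03 CPM in control cells (adjusted p = 0.0110), and Nt5c3, a pyrimidine nucleotidase, 49.9 ± 5.26 and 75.6 ± 7.33 CPM (adjusted p = 0.0128). Nme7 and Nme3, of the same family as Nme1, were 1.44-fold and 1.53-fold lower (adjusted p = 0.0163 and 0.0238), and the call of Nme3 ended once the trend on length was taken out (adjusted p = 0.215) and without LKB1-deficient replicate 2 or 4 or control replicate 3 or 4 (adjusted p from 0.0630 to 0.0726). Without both LKB1-deficient replicates 2 and 4, 0 of the further genes passed, with 2.37% of all genes passing there.

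Genes that work beside nucleotide supply in S phase and mitosis were given for comparison. Of 16 replication genes (the MCM helicase, Pcna, polymerase and initiation factors), 1 was lower, Gins2 at 91.9 ± 7.14 CPM in LKB1-deficient and 136 ± 23.2 CPM in control cells (adjusted p = 0.0244), and none was higher. At an unadjusted p under 0.05 there were 2 higher and 3 lower replication genes, and DESeq2 called 2 higher and 1 lower and limma-voom 0 higher and 1 lower. The median log2 fold change of the list was -0.045, and its summed level was 3053 to 3413 CPM in LKB1-deficient and 2989 to 3339 CPM in control libraries. Of 10 mitosis genes, 1 was lower, Ccnb2, encoding a B-type cyclin, at 92.0 ± 10.9 and 137 ± 18.35 CPM (adjusted p = 0.0216). None was higher by the quasi-likelihood test on all 8 libraries. At an unadjusted p under 0.05 there were 3 higher and 3 lower mitosis genes, and DESeq2 called 3 higher and 2 lower and limma-voom 1 higher and 1 lower. The list summed to 3564 to 4817 CPM in LKB1-deficient and 2272 to 3275 CPM in control libraries, ranges that do not overlap. Its median log2 fold change was 0.018, with 5 genes positive and 5 negative. The gap lay mostly with Top2a (on average 2045 CPM in LKB1-deficient and 1311 CPM in control cells), Mki67 (677 and 242.5 CPM) and Cenpf (438 and 228 CPM). Removing the length trend took their log2 fold changes from 0.64, 1.48 and 0.94 to 0.46, 0.88 and 0.39. The calls of Gins2 and Ccnb2 both ended without LKB1-deficient replicate 2 or 4 or control replicate 3 or 4 (adjusted p from 0.0576 to 0.0683), in the EU libraries alone (adjusted p = 0.0524 and 0.0529) and without both LKB1-deficient replicates 2 and 4 (adjusted p = 0.169 and 0.165). That of Ccnb2 also ended with the length trend taken out (-0.35, adjusted p = 0.0601).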

How the data were processed

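Gene expression was measured by strand-specific 3' RNA-seq in 8 mouse libraries, 4 per genotype; per the labels' protocols RNA was primed with barcoded oligo-dT, pooled by qPCR values and enriched with 12 PCR cycles. The protocol names no molecular identifiers, and PCR duplicates may inflate counts. Each library's table holds raw counts by gene symbol as deposited by the authors. STAR and mm10 are named in the submitters' processing notes. Not given in the sources used here are versions, the counting program, its annotation and whether shared reads were also counted to genes. Each table holds a line for alignments that were not unique. It came to 2.21 to 2.65 per gene count in LKB1-deficient and 2.92 to 3.50 per gene count in control libraries. The part of this difference in the results was not tested. Lines without a gene name did not enter library sizes or tests; counts outside annotated genes were 14.9% to 17.5% of the gene, ambiguous and unannotated counts in LKB1-deficient and 12.1% to 14.3% in control libraries. Chi-square tests between libraries of 1 group gave 10.9 to 46.2 per degree of freedom, and each library was kept as its own sample.

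From these counts, genes were kept by filterByExpr (minimum count 10, total 15), scaled by TMM and tested with edgeR 4.0.16 (robust quasi-likelihood, no covariates) in R 4.3.3, limma 3.58.1 and DESeq2 1.42.0 serving alternatives. CPM uses TMM-scaled library sizes. Standard errors are the absolute log2 fold change over the square root of F. Pair ratios use counts plus 2. The scripts were tested on simulated counts. Members, gene lists, pairs and the naming rule (all members, Stk11, up to 6 called further pathway genes by p, called context and marker genes) were chosen with earlier results of these data known. Motifs were chosen after values were seen, and some context and marker genes outside the rule are named for their values. Coordinates and lengths are from GENCODE vM21 (GRCm38, also called mm10), with a length for 99.6% of tested genes; promoters are from RefSeq, and 30 of 32 members matched. Transcript ends were compared with BLAST 2.17.0 (at least 95% identity over 50 bases). Alternatives are given at the end.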

Additional observations from a re-analysis of the deposited data

Results flagged for a closer look

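In 82 groups of 4 libraries (each of the 32 members, Stk11 and the 8 pair ratios in both genotypes), the gap of the highest or lowest library to its neighbour was set against the range of the group, and 4 exceeded the 95% critical value of Dixon's test. Chance alone flags about 1 in 20 such groups, and 4.88% were flagged. Cad was at 165 CPM in LKB1-deficient replicate 1, above 125 to 132 CPM in the other LKB1-deficient libraries. Dut was at 790.0 CPM in LKB1-deficient replicate 2, below 978 to 1014 CPM in the other 3. Gmps was at 106 CPM in control replicate 2, against 53.4 to 58.2 CPM in the other controls, and Ctps was at 89.5 CPM in the same library, against 78.6 to 79.8 CPM. The part of these single libraries in the fold changes is given by the values without each library.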

How the results depend on the processing

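The 2337 genes called overall ranged from 1011 to 2825 with single libraries left out and were 260 without both LKB1-deficient replicates 2 and 4, 437 at an adjusted p of 0.01 and 177 against a 1.5-fold change. With total count scaling 829 genes were higher and 1576 lower (34.5% of calls higher, against 55.0%), with upper quartile scaling 1023 and 1446 (41.4%), and the median of all genes moved to -0.16 and -0.10. Members called higher were 5 by DESeq2, 1 without both replicates 2 and 4 and 0 against a 1.5-fold change; members called lower were 0 in the last 2, 0 at an adjusted p of 0.01 and 1 in the EU libraries alone (chosen after the data were seen). Further pathway genes called were 14 with upper quartile and 15 with total count scaling, 0 without both replicates 2 and 4, 2 at 0.01, 0 against a 1.5-fold change, and 5 to 17 with single libraries left out; the 17 were without LKB1-deficient replicate 3 and the 5 without LKB1-deficient replicate 2 or 4. Deviations of same-numbered replicates from their group means had correlations of both signs (-0.251, 0.291, 0.3 and -0.086 for replicates 1 to 4). Differently numbered libraries could deviate together too. LKB1-deficient replicate 1 went with control replicates 3 and 4 (0.34 and 0.319) and against control replicates 1 and 2 (-0.251 and -0.372). The labels state no pairing, so the replicate block compares numbers only. With it 1902 genes, 2 higher and 2 lower members and 8 further genes were called. Of the members' calls it ended that of Ctps (adjusted p = 0.0588). Of the recomputed values of the members, Stk11 and the pair ratios, 783 kept sign and, where tested, side of the threshold. A further 27 lost a call, 5 gained one and 40 changed sign, all 40 in genes not called. The pair ratios had no test with libraries left out. With the replicate block they could not pass, since the smallest possible p was 0.125. By setting, the changed signs were, with upper quartile scaling, Prps1 -0.041 and Aprt -0.083; with total count scaling, Prps1 -0.10, Dhodh -0.052 and Aprt -0.14; without both replicates 2 and 4, Paics 0.03, Adss -0.15, Rrm1 -0.11, Dck 0.13, Cmpk1 0.018 and Stk11 0.18; with the length trend removed, Paics 0.065, Gmps -0.014, Dtymk 0.10, Dut 0.027, Dck 0.03 and Guk1 0.018; in EU libraries, Prps1 -0.13, Dhodh -0.017, Aprt -0.11 and Stk11 0.10. Aprt was also -0.017 with no filter, -0.005 with a mean CPM of at least 10 and -0.006 after thinning, and Dck 0.005 with DESeq2 size factors and 0.008 by DESeq2. With single libraries left out the ranges were -0.044 to 0.181 for Prps1, -0.116 to 0.009 for Paics, -0.132 to 0.021 for Tyms, -0.055 to 0.069 for Aprt, -0.064 to 0.068 for Dck and -0.224 to 0.079 for Stk11. The causes were not tested.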
